A study of Ovis aries with 20 samples.

Results

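Granulosa cells, which line the inside of the ovarian follicle, were compared with theca cells, the layer outside them, in adult control sheep. The comparison used 8 of the 19 libraries in the table: granulosa and theca of control sheep 224, 244, 246 and 268, the control animals with both layers in the table, paired by animal number. Of 28524 genes in the table, 15255 had a value of 10 or more in 4 or more of these 8 libraries and were tested. Of the 13269 genes left out, 4560 were at 0 in all 8 libraries. Among the tested genes, 30 were below 10 in every theca library and 172 were below 10 in every granulosa library, so these passed only through the layer in which they are high.

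The control animals were born to ewes that received vehicle from day 30 to day 90 of gestation, and the study's other animals (prenatal T) were born to ewes injected 2 times per week over the same days with 100 mg testosterone propionate (1.2 mg/kg). All animals were 21 months old. Their estrous cycles had been synchronised by prostaglandin F2 alpha, injected 2 times (10 mg, 11 days between), and the ovaries were removed 18 h after the second. Both layers were microdissected from cryosections of several antral follicles of an animal and pooled by layer, so a library is an average over follicles whose number, size and health are not given in the sources used here. Breed is not given either.

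The 2 layers divide the work of making estrogen. Under luteinizing hormone, theca cells turn cholesterol into androgen, and under follicle stimulating hormone granulosa cells turn that androgen into estradiol with aromatase. A basal lamina separates them: blood vessels, immune cells and contractile stroma lie on the theca side, while the granulosa side holds the oocyte and has no vessels of its own.

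Values are read counts that each library's size factor, estimated by the authors, had scaled. Recovered reads were 13.6 to 26.0 M per granulosa library (19.8 ± 5.25 M, mean ± SD, n = 4) and 14.3 to 18.1 M per theca library (16.1 ± 1.59 M, n = 4). The 10 most counted genes took 4.04 to 4.39% of the reads in granulosa and 7.55 to 8.82% in theca libraries. Correlations of log2 values across genes, which are not independent replicates, were 0.944 to 0.966 within granulosa, 0.948 to 0.967 within theca and 0.867 to 0.929 between layers. The granulosa library of sheep 268 had 21668 genes above 0 against 18965 to 19139 in the other 3. Of these, 2193 were above 0 in that granulosa library alone, with 6912 reads between them, and 4 of the 2193 were among the genes tested. Throughout, the values of a gene are given in the order sheep 224, 244, 246 and 268, a mean is given ± SD over 4 animals, and a log2 difference is granulosa minus theca on the scale of log2(value + 1), ± its standard error. Intervals are 95% intervals of 1 gene, not adjusted for the number of genes. A gene was called, and is described as higher in a layer, when the adjusted p of limma with the animal as a block was under 0.05 after Benjamini-Hochberg adjustment over all 15255 genes. For most genes that another setting left without a call, the adjusted p of such a setting is given, with the range over all alternatives tried for that gene, count tests included. In libraries of whole tissue layers, fewer cells of a type and less RNA per cell cannot be told apart.

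About as many genes were higher in granulosa as in theca, but the differences were larger on the theca side. Of 15255 genes, 3624 were higher in granulosa (23.8%) and 3623 higher in theca (23.7%), so 47.5% were called in either direction. Counts called in the gene lists below are to be read against these shares. In 7091 of the 7247 called genes all 4 animals differed in the direction of the call. The calls rest on these same differences, so this count adds no separate support. Of all genes tested, 4789 (31.4%) had no overlap between the 4 granulosa and the 4 theca values. Of the 7247 called genes, 4514 had none. Most genes named below from a list are its members of smallest p, so their lack of overlap follows in part from that choice. Genes called with at least a 2-fold difference numbered 915 in granulosa and 2275 in theca. At 8-fold or more there were 15 and 331, and at 32-fold or more 0 and 9. These counts include genes that passed the filter only through the layer in which they are high. Such genes numbered 172 for theca and 30 for granulosa, and the folds were not counted without them. The median difference over all genes was 0.05. The size factors set where no difference lies, so the even split of calls depends on that scaling. Without the animal block 1815 genes were higher in granulosa and 2750 in theca, which moved the share of calls that were in granulosa by over 10 percentage points, to 39.8%.

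**Figure D1:**
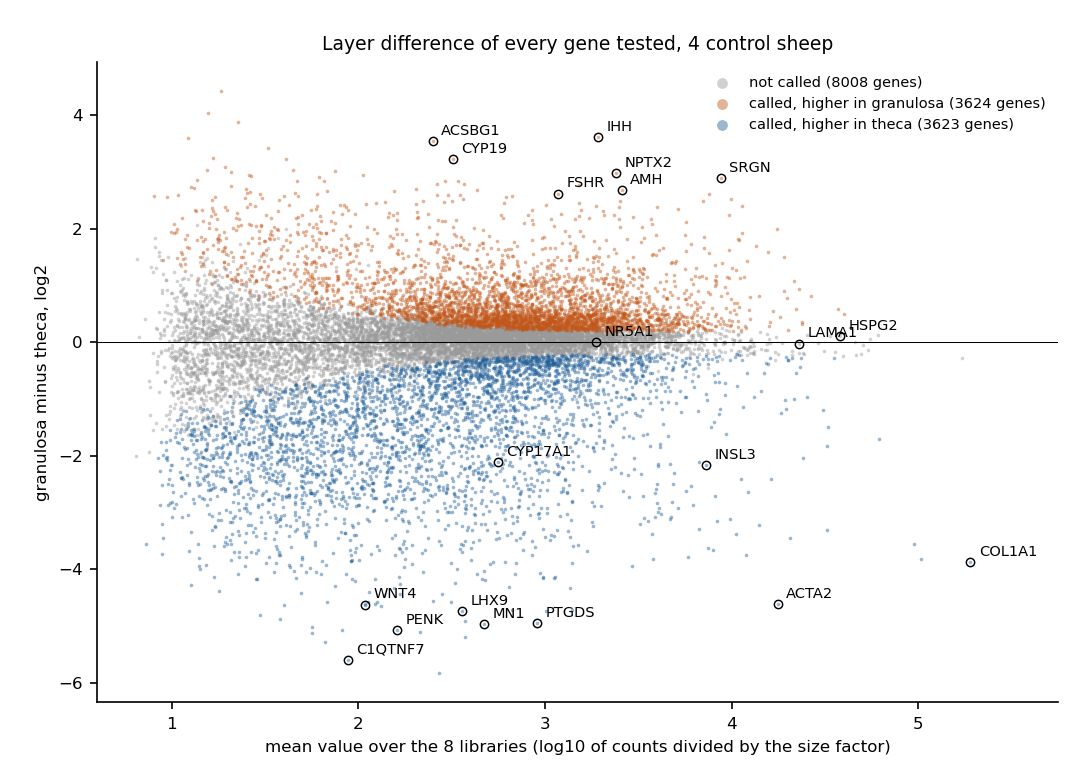
Each point is 1 of the 15255 genes tested, with its mean value over the 8 libraries on the horizontal axis (log10) and the granulosa minus theca difference (log2) on the vertical axis; orange genes were called higher in granulosa, blue genes higher in theca, and grey genes were not called. The blue points reach below -5 (C1QTNF7 at -5.59), while the labelled genes of granulosa end at IHH with 3.61, and NR5A1, LAMA1 and HSPG2 lie near 0.

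Marker genes went with the labelled layers. The marker lists were chosen with earlier results of these data known, so the counts are not an independent check of the labels. Of 15 granulosa markers tested, 14 were higher in granulosa and 0 in theca, with a median log2 difference of 2.35; the other one, the hedgehog ligand DHH, was not called and had low values (26.1, 33.1, 2.17 and 23.5 in granulosa and 15.9, 26.1, 16.2 and 29.7 in theca libraries). All 20 theca markers tested were higher in theca, with a median of -2.66, against a median of 0.05 over all genes tested. The theca markers summed to 37119.7 to 88911 in granulosa and 671502 to 908782 in theca libraries. The granulosa markers summed to 76318 to 209212 in granulosa and 28374 to 40728 in theca libraries.

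Neither layer was free of the genes that mark the other. Across the 14 called granulosa markers, the median level in theca was 12.9 to 27.0% of the granulosa level of the same animal, lowest in sheep 268 and highest in sheep 224. Across the 20 theca markers, the median level in granulosa was 12.4 to 20.9% of the theca level, lowest in sheep 224 and highest in sheep 246. In sheep 246 the share ran from 9.06% for COL1A1, a fibrillar collagen of stroma, to 64.6% for STAR, the carrier of cholesterol into mitochondria. FOXL2, a transcription factor of ovarian identity, was the granulosa marker with the highest theca share in every animal (60.0 to 113%). The part of neighbouring cells in these levels was not tested.

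Most markers of vessels, contractile cells and immune cells were higher in theca. Of 25 endothelial markers tested, 22 were higher in theca and 1 in granulosa (median -2.25). Of 18 smooth muscle and pericyte markers, 16 were higher in theca and 0 in granulosa (median -2.76). Of 21 immune markers, 13 were higher in theca and 1 in granulosa (median -0.81). With the filter of 50 in place of 10 the theca count was 6, and without the animal block the granulosa count was 0. The 5 red cell genes in the table summed to at most 3.24 in a granulosa and 4.33 in a theca library, and 0 were tested. The endothelial sum was 4902 to 8452 in granulosa and 22232 to 32272 in theca libraries, and that of smooth muscle 36359 to 54099 and 144089.7 to 253842. The immune sum was 2238 to 4096 in granulosa and 2874 to 5082 in theca libraries, so here the ranges overlapped.

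**Figure D2:**
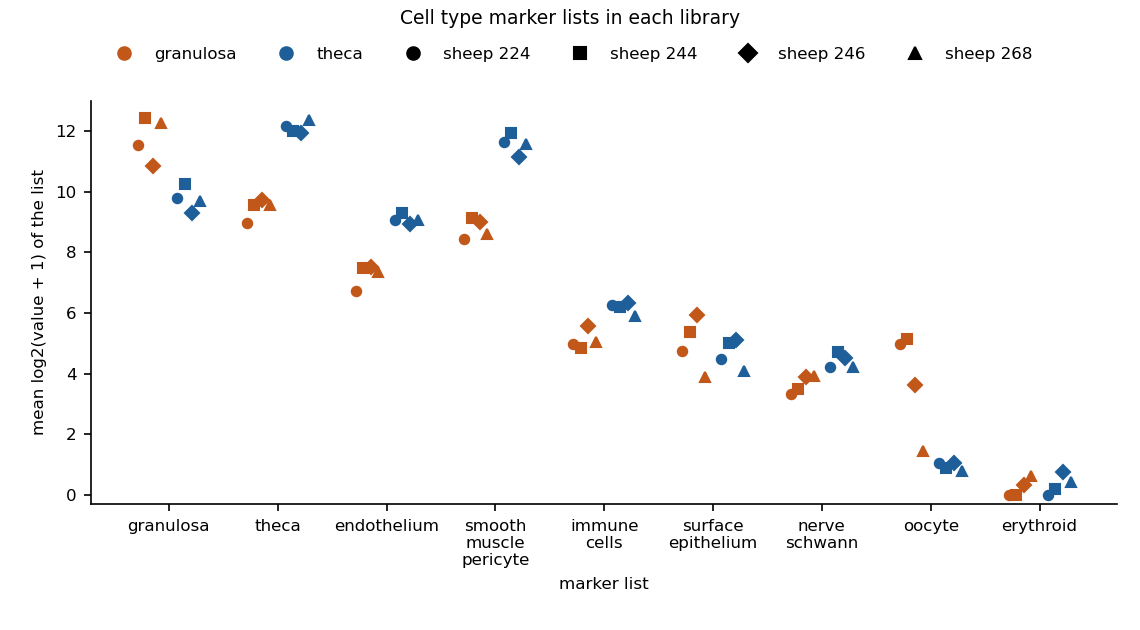
Mean of log2(value + 1) over each of 9 cell type marker lists in each library, with granulosa libraries in orange, theca libraries in blue and a symbol for each sheep. Theca, endothelial and smooth muscle markers are higher in all 4 theca libraries, and the oocyte list runs in granulosa from 1.44 in sheep 268 to 5.13 in sheep 244, against 0.79 to 1.06 in theca.

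Transcripts that mark the oocyte were counted mainly in granulosa, and mainly in 3 of the 4 animals. ZP3, a protein of the egg coat, was at 107, 162, 34.0 and 4.05 in granulosa, from 391 reads, and had 2 reads over the 4 theca libraries. BMP15, a growth factor that oocytes secrete, was at 51.1, 65.1, 27.5 and 0 in granulosa, and MOS, a kinase of the maturing oocyte, at 90.6, 83.8, 31.1 and 0. Both had 0 reads in all 4 theca libraries. Sheep 224 and 244 were high for each of the 3 genes and sheep 268 was lowest, at 0 for BMP15 and MOS. Of the 14 oocyte genes in the table only ZP2, GDF9 and DDX4 passed the filter on low values, and of these GDF9 was called, at 75.0, 67.3, 21.7 and 14.6 in granulosa and 20.6, 18.1, 8.66 and 10.5 in theca libraries (log2 difference 1.33 ± 0.36, adjusted p = 0.0157). GDF9 was not called without sheep 224 (adjusted p = 0.0736, range 0.00408 to 0.11) or without sheep 244 (0.08). DDX4, of the germ line, had 88 reads in granulosa and 91 in theca libraries.

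The receptors of the pituitary hormones divided by layer. FSHR, the receptor of follicle stimulating hormone, was at 1793, 2185, 1873 and 2172 in granulosa and 362, 442, 442 and 157 in theca libraries (log2 difference 2.62 ± 0.25, adjusted p = 0.000102). LHCGR, the receptor of luteinizing hormone, was at 232, 787, 567 and 349 in granulosa and 1354, 1837, 2092 and 1891 in theca libraries (log2 difference -2.02 ± 0.20, adjusted p = 0.000118). The layers did not overlap for either receptor. The theca library of sheep 268 was lowest for FSHR, and the granulosa level of LHCGR was highest in sheep 244. Of 20 receptors of gonadotropins, steroids and peptide hormones tested, 8 were higher in granulosa and 8 in theca, against 23.8% and 23.7% of all genes. AMHR2, the receptor of anti-Müllerian hormone (1.63), IGF1R (0.80) and the insulin receptor INSR (0.60) were on the granulosa side. The progesterone receptor PGR (-1.79), the relaxin receptor RXFP1 (-4.65) and the mineralocorticoid receptor NR3C2 (-1.92) were on the theca side.

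PGR was at 337, 535, 562 and 595 in granulosa and 1171, 1564, 1884 and 2498 in theca libraries (log2 difference -1.79 ± 0.10, adjusted p = 1.34e-05), without overlap. RXFP1 was at 0.556, 28.7, 12.3 and 13.8 in granulosa and 184, 363, 219.7 and 239 in theca libraries, and its 4 granulosa values were all below 30. Of the estrogen receptors, ESR1 was higher in granulosa, at 1961 ± 450.4 in granulosa and 1244 ± 164 in theca (log2 difference 0.64 ± 0.10, adjusted p = 0.00161), although the ranges overlapped. ESR2 was not called, at 213 ± 45.2 in granulosa and 217 ± 13.3 in theca, with a 95% interval of the log2 difference from -0.38 to 0.27. The glucocorticoid receptor NR3C1 was not called either (0.11, -0.12 to 0.35).

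Enzymes of steroid synthesis were found on both sides. Of the genes of the steps up to androgen most were higher in theca, but the cofactor CYB5A was higher in granulosa. CYP17A1, which makes androgen, was at 143, 248, 220.4 and 229 in granulosa and 901, 702, 924 and 1112 in theca libraries (log2 difference -2.12 ± 0.17, adjusted p = 4.75e-05). HSD3B1, the dehydrogenase that makes progesterone and androstenedione, was at 97.3, 189.7, 233 and 207 in granulosa and 605, 659, 1249.9 and 1118 in theca libraries (log2 difference -2.32 ± 0.15, adjusted p = 1.91e-05). Every theca value of both enzymes lay above every granulosa value, and sheep 224 had the lowest granulosa level of each. CYP11A1, which cleaves the side chain of cholesterol, was at 554, 1576, 1114 and 478 in granulosa and 1922, 2192, 2489 and 2394 in theca libraries (log2 difference -1.44 ± 0.25, adjusted p = 0.00228), and its granulosa values spread more than its theca values. STAR (-1.05), the electron carrier FDX1 (-1.10) and HSD11B2, which inactivates cortisol (-3.22), were also higher in theca, while FDXR was not called.

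Enzymes of the last steps were higher in granulosa. HSD17B1, which reduces estrone to estradiol, was at 5839, 3983, 2988 and 8530.4 in granulosa and 1715, 708, 939 and 1815 in theca libraries (log2 difference 2.04 ± 0.13, adjusted p = 2.13e-05), without overlap. CYP19, the row of aromatase, was at 109, 1767, 43.4 and 278 in granulosa and 21.5, 336, 3.25 and 8.73 in theca libraries (log2 difference 3.23 ± 0.41, adjusted p = 0.000421). Sheep 244 was high for CYP19 in both layers, with a theca value above the granulosa value of the 3 other animals, so the layers overlapped although granulosa was higher within each of the 4 animals. CYP19 was not called without the animal block (adjusted p = 0.116, range 6.51e-07 to 0.116). NR5A2, a nuclear receptor that drives aromatase transcription, was higher in granulosa (2.39 ± 0.20). Cytochrome b5 CYB5A, which acts at the androgen step and not at these last steps, was also higher in granulosa (0.91). NR5A1, the steroidogenic factor that both layers need, was at 1753, 2013, 1389 and 2353 in granulosa and 1472, 1626, 1937 and 2477 in theca libraries, with a log2 difference of 0.00 and a 95% interval from -0.30 to 0.30. Over the 19 steroid synthesis genes tested, 6 were higher in granulosa, 6 in theca and 7 were not called (median 0.00). The share of 31.6% on either side compares with 23.8% and 23.7% of all genes. With all 19 libraries 3 were higher in theca.

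Both layers also make peptide hormones. AMH, the granulosa hormone that restrains follicle recruitment, was at 5386, 3453, 2629 and 6293 in granulosa and 1114, 461, 483 and 733 in theca libraries (log2 difference 2.68 ± 0.14, adjusted p = 1.12e-05). INSL3, the relaxin-like hormone of theca cells, was at 2019.8, 3032, 3627 and 1828 in granulosa and 10247, 8880.4, 18648 and 9871 in theca libraries (log2 difference -2.17 ± 0.14, adjusted p = 2.10e-05). Neither gene overlapped between layers. In a fit of all 19 libraries with the animal as a random effect, AMH (adjusted p = 0.0618, range 3.39e-62 to 0.0618), INSL3 (0.151, range 5.66e-42 to 0.151), LHCGR (0.171, range 2.04e-20 to 0.171), CYP17A1 (0.0957, range 1.75e-26 to 0.0957) and HSD3B1 (0.0609, range 1.77e-41 to 0.0609) were not called.

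**Figure D3:**
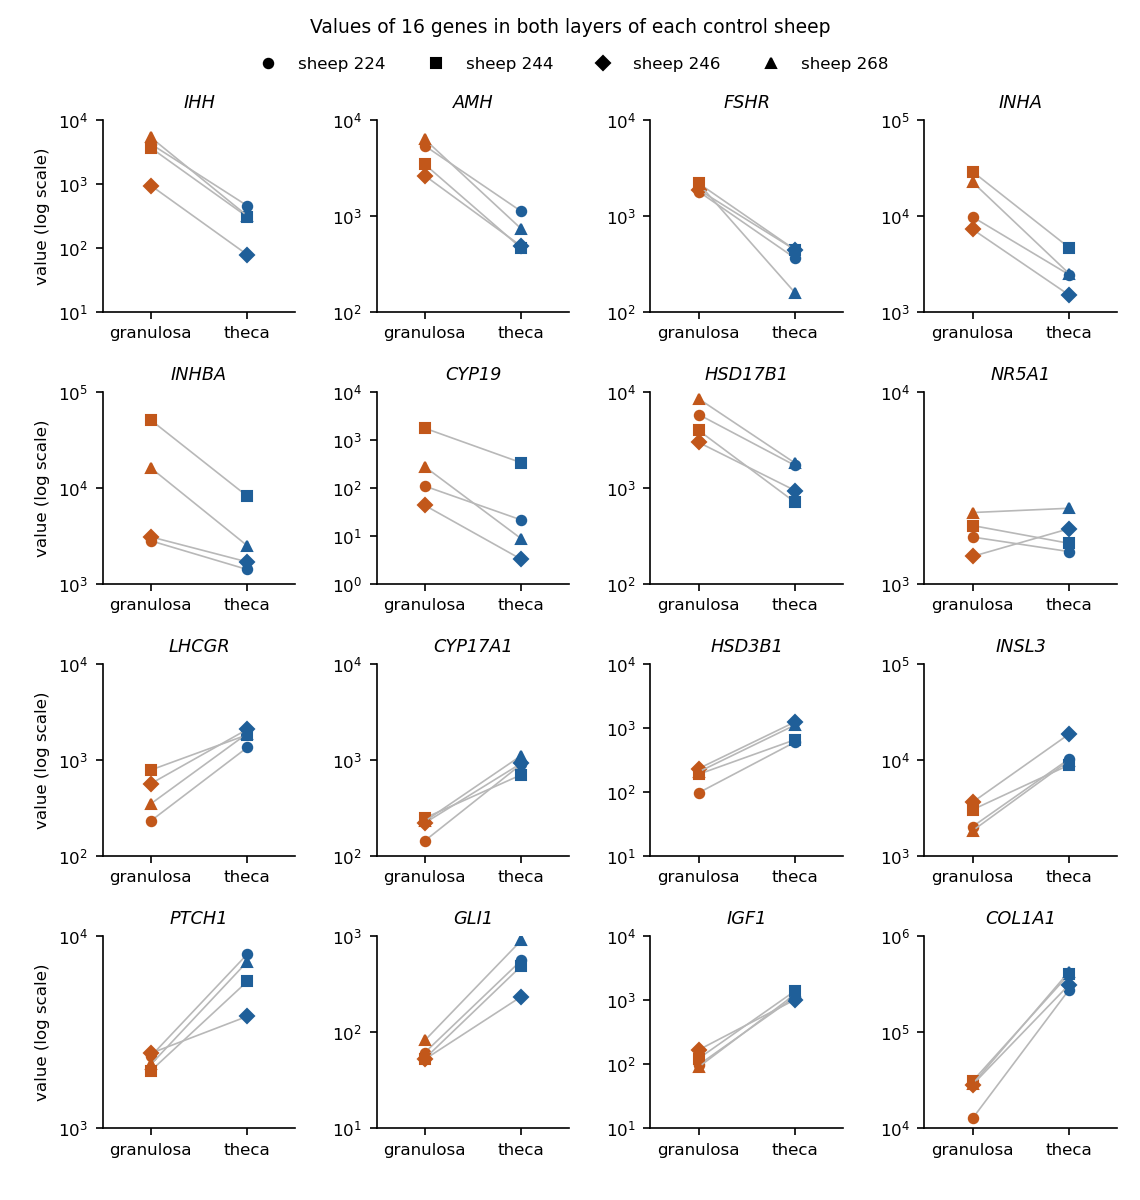
Values of 16 genes (log scale) in the granulosa (orange) and theca (blue) library of each sheep, with a line joining the layers of 1 animal. Lines fall from granulosa to theca for IHH to HSD17B1, run level for NR5A1 and rise for LHCGR to COL1A1, and sheep 244 stands high in INHBA (51113 in granulosa) and CYP19 (1767).

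Genes of cholesterol supply were mostly higher in granulosa: 16 of 27 tested were higher there and 2 in theca (median 0.69). The theca count was 1 without the animal block, with all 19 libraries or with the theca library of sheep 139 added. The granulosa side was mostly enzymes that build cholesterol, and it held the regulators SREBF2 (0.41) and INSIG1 (0.99). MSMO1, a sterol demethylase, was at 2246, 2494, 3011 and 3644 in granulosa and 957, 587, 865 and 881 in theca libraries (log2 difference 1.79 ± 0.14, adjusted p = 3.79e-05). DHCR7 (1.31) and SC5D (0.76), enzymes of the same pathway, were also higher in granulosa. None of these 3 overlapped between layers. The genes higher in theca were the cholesterol exporter ABCA1 (mean 1903 ± 699 in granulosa and 3668 ± 916 in theca) and the lysosomal carrier NPC2 (-0.50), which was not called without the block (adjusted p = 0.197, range 0.000335 to 0.197). The lipoprotein receptor SCARB1 was not called, at 1203 ± 375 in granulosa and 1199.8 ± 44.1 in theca (95% interval -0.41 to 0.31).

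The inhibin subunits tested and follistatin were higher in granulosa. INHA, the inhibin alpha subunit, was at 9745, 28936, 7238 and 22501 in granulosa and 2433, 4665, 1493 and 2500.1 in theca libraries (log2 difference 2.52 ± 0.17, adjusted p = 2.15e-05). FST, follistatin, which binds activin, was at 10769.8, 16876, 6844 and 17909.7 in granulosa and 2280.2, 2675, 1498 and 1779 in theca libraries (6.08-fold, adjusted p = 2.15e-05). Both, and the beta B subunit INHBB (2.35), were without overlap. INHBA, the beta A subunit, was at 2807, 51113, 3087 and 16190.0 in granulosa and 1409, 8203, 1690.4 and 2495 in theca libraries (log2 difference 1.80 ± 0.31, adjusted p = 0.00217), and here sheep 244 and 268 were high and sheep 224 and 246 low in granulosa. Its theca value in sheep 244 exceeded the granulosa values of sheep 224 and 246. INHBA was not called without the animal block (adjusted p = 0.172, range 0.000549 to 0.172) or in the fit of all 19 libraries (0.089), and INHA was not called in the latter (0.0598, range 1.83e-42 to 0.0598).

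Of 37 genes of the transforming growth factor beta family tested, 12 were higher in granulosa and 18 in theca (median -0.49), and with all 19 libraries the granulosa count was 4. The theca side held the receptor TGFBR2 (-2.11), its co-receptor endoglin, ENG (-2.65), the antagonist NBL1 (-1.47) and the response gene ID1 (-1.23). The bone morphogenetic protein receptors split. BMPR1B, a receptor tied to ovulation rate in sheep, was higher in granulosa at 4528 ± 1268 in granulosa and 2954 ± 622 in theca (log2 difference 0.60 ± 0.07, adjusted p = 0.000325), and its relative BMPR1A was higher in theca at 2473 ± 265 in granulosa and 3316 ± 327 in theca (log2 difference -0.42 ± 0.08, adjusted p = 0.00328). Both pairs of ranges overlapped, and BMPR1B was not called without the block (adjusted p = 0.0797, range 2.21e-10 to 0.207) or with all 19 libraries (0.207). The activin receptor ACVR2A was not called (0.17, -0.23 to 0.56).

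Hedgehog genes showed a ligand higher in one layer and most other genes of the pathway higher in the other. IHH, Indian hedgehog, had the largest granulosa difference among genes with a symbol and a mean of at least 100 in that layer, at 4220.2, 3666, 943 and 5344 in granulosa and 455, 305, 77.9 and 316 in theca libraries (log2 difference 3.61 ± 0.13, adjusted p = 6.81e-06). Sheep 246 was low in both layers, the layers did not overlap, and the difference within an animal was 3.21 to 4.08. PTCH1, the receptor that hedgehog signalling also induces, was at 2368, 1988, 2454 and 2145 in granulosa and 8075, 5822, 3825 and 7377 in theca libraries (log2 difference -1.43 ± 0.18, adjusted p = 0.000369). GLI1, a transcription factor and target of the pathway, was at 61.1, 52.9, 52.0 and 81.9 in granulosa and 560.5, 489, 235 and 906 in theca libraries (log2 difference -2.99 ± 0.22, adjusted p = 3.05e-05). For PTCH1 and GLI1 the theca library of sheep 246 was the lowest of the 4. A link between the level of IHH in an animal and these genes was not tested. GLI2 (-3.66) and the co-receptor CDON (-1.86) were on the theca side without overlap. In all, 13 of 17 hedgehog genes tested were higher in theca (median -1.43), and IHH was the only one higher in granulosa. DHH was not called, with a 95% interval of -1.67 to 0.79.

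Insulin-like growth factors ran the other way. IGF1 was at 97.3, 122, 167 and 90.0 in granulosa and 1133, 1403, 1023 and 1241 in theca libraries (log2 difference -3.35 ± 0.18, adjusted p = 1.34e-05), and IGF2 at 1745, 2128, 1854 and 1217 in granulosa and 7928, 8532, 7124 and 6601 in theca libraries (log2 difference -2.14 ± 0.09, adjusted p = 8.87e-06). Their receptor IGF1R was at 15348, 16652, 16675 and 14001 in granulosa and 9928, 10982, 10394 and 5772 in theca libraries (log2 difference 0.80 ± 0.12, adjusted p = 0.00105). Each of the 3 genes was without overlap between layers, the ligands high in theca and the receptor high in granulosa. The binding proteins divided: IGFBP2 was higher in granulosa (1.51), and IGFBP4 (-3.10), IGFBP5 (-1.82) and IGFBP6 (-2.84) were higher in theca. PAPPA2, a protease that cleaves binding proteins (2.39), and the adaptor IRS1 (0.48) were higher in granulosa. In the list of 21 genes tested, 9 were higher in granulosa and 10 in theca (median 0.19).

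Of 38 ligand and receptor pairs, 5 had the ligand higher in granulosa and the receptor higher in theca. A pair needs a call of both genes, so the shares of single genes are no background for these counts. No background for pairs was computed, and some genes occur in several pairs. Beside IHH with PTCH1 the 5 pairs were PDGFA with PDGFRA, VEGFA with KDR, ANGPT2 with TEK and GDNF with RET. VEGFA, the vascular growth factor, was at 2453, 3044, 868 and 2087 in granulosa and 611, 679, 373 and 689.9 in theca libraries (log2 difference 1.74 ± 0.15, adjusted p = 5.80e-05), and its endothelial receptor KDR at 594, 890.0, 1589 and 835 in granulosa and 3235, 3111, 2697 and 2511 in theca libraries (log2 difference -1.65 ± 0.22, adjusted p = 0.000587). Sheep 246 was lowest for VEGFA in granulosa and highest for KDR there, and neither gene overlapped between layers. ANGPT2, which antagonises the receptor TEK, was at 12571, 11539, 19900.2 and 12853 in granulosa and 5702, 5514, 7662 and 4015 in theca libraries (log2 difference 1.32 ± 0.11, adjusted p = 4.84e-05), and TEK was -1.27. Platelet-derived growth factor PDGFA was 0.70, with overlap and no call with the theca library of sheep 139 added (adjusted p = 0.0916), while its receptor PDGFRA was at 1232 ± 380.0 in granulosa and 9133 ± 1895 in theca (log2 difference -2.93 ± 0.16, adjusted p = 1.28e-05). GDNF, a neurotrophic factor, was at 106 ± 38.1 in granulosa and 40.5 ± 22.5 in theca (log2 difference 1.46 ± 0.23, adjusted p = 0.00131), and its receptor RET at 18.2 ± 10.5 in granulosa and 63.5 ± 23.8 in theca (log2 difference -1.93 ± 0.54, adjusted p = 0.0186). GDNF was not called with all 19 libraries (adjusted p = 0.119, range 1.58e-06 to 0.119).

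The reverse arrangement was found in 3 pairs: BMP6 with BMPR1B, and IGF1 and IGF2 with their shared receptor IGF1R. BMP6 was -2.28. Both partners were higher in granulosa for AMH with AMHR2 and for KITLG with KIT. KITLG, the kit ligand, was at 1874, 1724, 1877 and 1878 in granulosa and 791, 689, 897 and 823 in theca libraries (log2 difference 1.20 ± 0.08, adjusted p = 1.92e-05), without overlap. KIT, its receptor, was at 2253, 1036, 955 and 945 in granulosa and 932, 689.9, 708 and 329 in theca libraries (log2 difference 0.95 ± 0.18, adjusted p = 0.00295), highest in the granulosa of sheep 224. KIT is also a gene of oocytes and mast cells, and it was not called without the block (adjusted p = 0.0726, range 7.63e-06 to 0.0726). Both partners were higher in theca in 11 pairs. Examples are CXCL12 (-2.89) with CXCR4 (-1.45), GAS6 (-2.77) with AXL (-2.18), PDGFB (-1.57) with PDGFRB (-2.23) and APLN (-2.38) with APLNR (-1.81). In the other 17 pairs at least 1 partner was not called or not tested, among them VEGFA with FLT1 (FLT1 0.03) and EFNB2 (0.17) with EPHB4 (0.02).

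**Figure D4:**
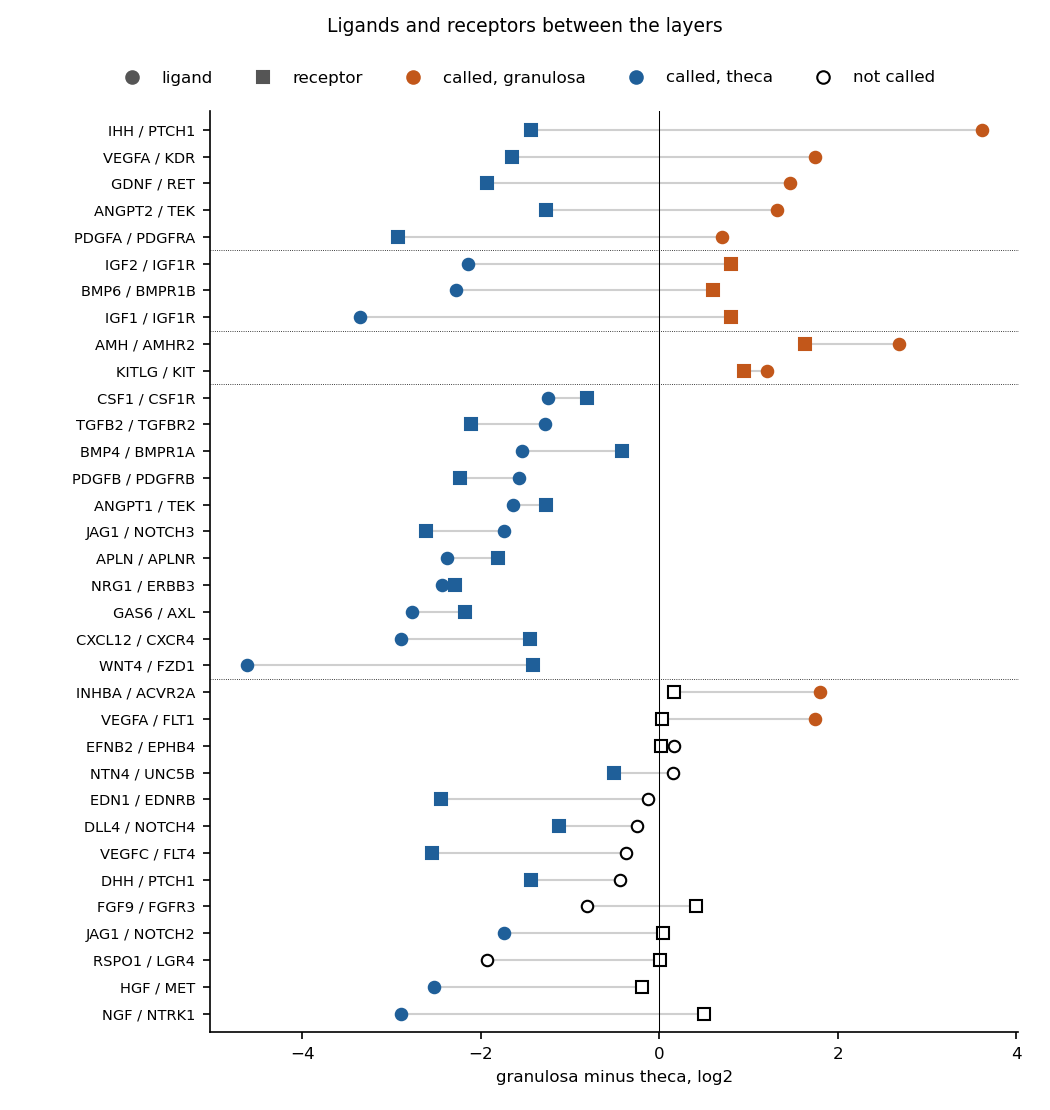
Log2 difference (granulosa minus theca) of the ligand (circle) and receptor (square) of each pair with both genes tested, joined by a line; orange symbols were called higher in granulosa, blue higher in theca, and open symbols were not called. The top 5 pairs have the ligand in granulosa and the receptor in theca, led by IHH at 3.61 and PTCH1 at -1.43, the next 3 the reverse, and 11 pairs in the middle have both partners in theca.

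Of 49 growth factors and their receptors tested, 28 were higher in theca and 12 in granulosa (median -1.27). FGF1, a fibroblast growth factor, was at 53.9, 61.8, 83.8 and 78.6 in granulosa and 743, 601, 676 and 747 in theca libraries (log2 difference -3.31 ± 0.15, adjusted p = 9.94e-06). On the granulosa side, the receptor tyrosine kinase ERBB2 was at 4079 ± 558 in granulosa and 1899.7 ± 383 in theca (log2 difference 1.11 ± 0.08, adjusted p = 2.59e-05) and the epidermal growth factor family ligand BTC at 82.7 ± 22.1 in granulosa and 17.3 ± 7.27 in theca (log2 difference 2.25 ± 0.36, adjusted p = 0.00141). None of the 3 overlapped between layers.

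Wnt genes were mostly on the theca side, with 17 of 31 tested higher there and 6 in granulosa (median -1.25). WNT4, a ligand of gonadal development, was at 3.33, 5.51, 13.7 and 8.92 in granulosa and 324, 175, 124 and 211 in theca libraries (log2 difference -4.62 ± 0.46, adjusted p = 0.000123), without overlap. The frizzled receptors FZD1 (-1.41), FZD4 (-2.16) and FZD7 (-1.60) and the secreted antagonist SFRP1 (-1.83) were higher in theca. FZD3 (1.04), the co-receptor LRP5 (0.55) and the transcription factors TCF7 (1.06) and TCF7L2 (0.80) were higher in granulosa. RSPO1, which amplifies Wnt signals, was not called at 6.11, 11.0, 0 and 0 in granulosa and 8.41, 12.1, 11.9 and 10.5 in theca libraries, and its receptor LGR4 was not called either (0.00, -0.19 to 0.20).

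Among 19 Notch genes tested 12 were higher in theca and 1 in granulosa (median -1.07). NOTCH3, the receptor of mural cells of vessels, was at 469, 988, 851 and 683 in granulosa and 4694, 5635, 3443 and 4167 in theca libraries (log2 difference -2.61 ± 0.18, adjusted p = 2.29e-05), and the target gene HEYL was -2.47. Without sheep 224 the granulosa count was 2. The one gene higher in granulosa in the 4 animals was the related target HEY2, at 524, 747, 314 and 856 in granulosa and 146, 239, 158 and 151 in theca libraries (log2 difference 1.74 ± 0.22, adjusted p = 0.000384). NOTCH2 was not called, at 12343, 11639, 8581 and 12465 in granulosa and 11457, 12131, 8996 and 11043 in theca libraries, with a 95% interval of -0.14 to 0.22. The ligand JAG1 was higher in theca (-1.74), with its highest granulosa value in sheep 246 (1664 against 425 to 729).

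Nearly all collagen genes differed between the layers. Of 31 collagen genes tested, 27 were higher in theca and 3 in granulosa (median -2.41), against 23.7% and 23.8% of all genes, and with all 19 libraries the granulosa count was 1. COL1A1, the most counted gene of the theca libraries, was at 12589, 30780.3, 28281 and 28691 in granulosa and 276534, 402124, 312206 and 427686 in theca libraries (log2 difference -3.88 ± 0.17, adjusted p = 8.87e-06). COL14A1, a collagen on the surface of fibrils, was -3.30, COL11A1 -2.89 and COL1A2 -3.83. The granulosa library of sheep 224 was the lowest for COL1A1, at less than any other by more than 2-fold. Collagens summed to 0.647 to 1.05% of the reads in granulosa and 5.69 to 7.39% in theca libraries.

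Type IV collagen, the network of basal laminas, was split by chain. COL4A3 was at 4002, 3828, 4318 and 3571 in granulosa and 1386, 1735, 1941 and 1358 in theca libraries (log2 difference 1.30 ± 0.09, adjusted p = 2.13e-05), and COL4A4 at 10553, 10834, 14446 and 12963 in granulosa and 5643, 5326, 7814 and 6165 in theca libraries (log2 difference 0.97 ± 0.07, adjusted p = 3.17e-05). COL4A5 was higher in theca at 457, 420.2, 535 and 368 in granulosa and 3270.4, 3738, 2343 and 3218 in theca libraries (log2 difference -2.81 ± 0.16, adjusted p = 1.50e-05), as was COL4A6 (-3.10), and COL4A1 (-1.20) and COL4A2 (-1.18) were higher in theca by less. The 4 values of each layer stood apart for all 6 chains. The third collagen higher in granulosa was COL9A2 (1.35), which overlapped and was not called without the block (adjusted p = 0.222, range 1.11e-08 to 0.222). COL4A3 (adjusted p = 0.103, range 2.91e-30 to 0.103) and COL4A4 (0.263, range 1.90e-29 to 0.263) were not called in the fit of all 19 libraries.

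Some other basal lamina components had intervals within 1.5-fold. LAMA1, the laminin alpha 1 chain, was at 22067, 26263, 23889.5 and 18697 in granulosa and 22180.2, 27852, 25855 and 17258 in theca libraries, with a 95% interval of the log2 difference of -0.22 to 0.17. HSPG2, perlecan, was at 37320.3, 43036, 32018 and 45119 in granulosa and 30258, 44704, 32926 and 38635 in theca libraries (interval -0.13 to 0.34), and LAMC1, the gamma 1 chain, had an interval of -0.21 to 0.12. None of the 3 was called. Still, 16 of 25 basal lamina genes tested were higher in theca and 3 in granulosa (median -1.08), the latter 5 without sheep 224. The linker NID1, nidogen, was at 724, 1182, 1029 and 1093 in granulosa and 8529, 8902, 7013 and 9185 in theca libraries (log2 difference -3.08 ± 0.12, adjusted p = 8.87e-06), and FREM1 (-2.51), LAMA4 (-2.24) and the integrin ITGB4 (-2.99) went with it. On the granulosa side were 2 receptors of laminin, the integrin ITGA6 at 11721, 9617, 10598 and 12377 in granulosa and 3685, 3069, 3082 and 2527 in theca libraries (log2 difference 1.85 ± 0.11, adjusted p = 1.75e-05) and dystroglycan, DAG1 (0.94).

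Of 40 proteoglycan and elastic fibre genes tested, 30 were higher in theca and 4 in granulosa (median -1.92), the latter 2 with all 19 libraries. PRELP, which anchors collagen to basement membrane, was at 106, 132, 67.2 and 161 in granulosa and 1736, 3171, 1074 and 2554 in theca libraries (log2 difference -4.14 ± 0.12, adjusted p = 4.01e-06). Elastin, ELN (-3.75), the fibrillin FBN2 (-3.59) and EMILIN1 (-3.38) were likewise higher in theca. The granulosa side held versican, VCAN (1.70), the glypicans GPC3 (1.16) and GPC6 (0.50) and the matricellular gene CCN3, at 1119, 652, 4509.6 and 1652 in granulosa and 176, 219.9, 1235 and 212 in theca libraries (log2 difference 2.26 ± 0.22, adjusted p = 9.83e-05). The theca value of CCN3 in sheep 246 was above the granulosa values of sheep 224 and 244, so the layers overlapped. GPC6 was not called without sheep 246 (adjusted p = 0.0734, range 0.00964 to 0.697) or without sheep 268 (0.0614).

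Among 33 matrix proteases and their inhibitors tested, 18 were higher in theca and 5 in granulosa (median -0.88). The granulosa count was 3 without sheep 246, 2 with all 19 libraries, and 1 without the block, with the filter of 50 or with sheep 139 added. ADAMTS2, which trims procollagen, was at 68.4, 184, 107 and 89.2 in granulosa and 1027, 1489, 1046 and 956 in theca libraries (log2 difference -3.40 ± 0.15, adjusted p = 9.16e-06), with ADAMTS12 at -2.79, the inhibitor TIMP2 at -2.66 and cathepsin K, CTSK, at -2.46. SERPINE2, a protease inhibitor of granulosa cells, was at 15173, 51642, 22732 and 23313 in granulosa and 5063, 8769, 7599 and 4916 in theca libraries (log2 difference 1.99 ± 0.17, adjusted p = 5.21e-05), highest in sheep 244. Cathepsin L, CTSL, was called for granulosa (1.03) but differed more between animals than between layers, at 45.6, 104, 537 and 37.3 in granulosa and 14.9, 43.2, 347 and 22.7 in theca libraries. CTSL was not called without the block (adjusted p = 0.506, range 0.000379 to 0.617) or with all 19 libraries (0.301).

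Cell junction genes were found on both sides. N-cadherin, CDH2, was at 12679, 16212, 18249 and 16550.0 in granulosa and 3207, 3603, 4491 and 2373 in theca libraries (log2 difference 2.24 ± 0.13, adjusted p = 1.68e-05), and CDH11, a cadherin of mesenchyme, at 472, 801, 935 and 833 in granulosa and 4917, 4682, 4196 and 5779 in theca libraries (log2 difference -2.72 ± 0.17, adjusted p = 1.87e-05). Desmoplakin, DSP (1.90), the gap junction protein GJA1 (1.27) and NECTIN2 (0.76) were higher in granulosa, and JAM2 (-2.69), CDH5 (-2.29) and CLDN5 (-2.53), genes of endothelial junctions, in theca. None of these 8 overlapped. Of 27 junction genes tested 10 were higher in granulosa and 9 in theca (median 0.18), or 37.0% and 33.3% against 23.8% and 23.7% of all genes.

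The contractile genes of the outer theca had some of the largest differences. ACTA2, smooth muscle actin, was at 1023, 1683, 1121 and 1659 in granulosa and 37511, 39979, 21422 and 36698 in theca libraries (log2 difference -4.62 ± 0.14, adjusted p = 4.01e-06). DES, desmin, was at 37.2, 236, 155 and 60.8 in granulosa and 1968, 4107, 2176 and 2411 in theca libraries (log2 difference -4.72 ± 0.29, adjusted p = 1.82e-05). ACTG2 (-3.94) and MYL9 (-2.32) also differed without overlap. Of the pericyte markers, NOTCH3, RGS5, KCNJ8 and ABCC9 were higher in theca, while MCAM (-0.37, -0.81 to 0.08) and CSPG4 (-0.44, -0.93 to 0.06) were not called.

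Endothelial genes were led by VWF, von Willebrand factor, at 721, 1633, 774 and 821 in granulosa and 7601, 10627, 4919.6 and 4845 in theca libraries (log2 difference -2.83 ± 0.13, adjusted p = 9.94e-06), with ENG at -2.65, SOX18 at -2.58 and MMRN2 at -2.25. The one endothelial marker higher in granulosa was ESM1, a secreted proteoglycan, at 249.6, 585, 262 and 443 in granulosa and 66.3, 121, 55.2 and 131 in theca libraries (log2 difference 2.03 ± 0.15, adjusted p = 3.15e-05), without overlap. FLT1 (0.03) and PROX1 (-0.14) were not called. Among immune genes, the leukocyte antigen PTPRC was at 129.5, 202, 298 and 140.3 in granulosa and 586, 689.9, 496 and 558 in theca libraries (log2 difference -1.66 ± 0.22, adjusted p = 0.000543). Of the genes of T and NK cells, CD8A was at 4.45, 1.10, 5.78 and 3.24 in granulosa and 36.4, 38.2, 27.1 and 52.4 in theca libraries (log2 difference -3.18 ± 0.47, adjusted p = 0.000969), NKG7 was -2.79 and CD3D -2.44. Of the macrophage genes, CSF1R was -0.81 with overlap, and C1QA, C1QC and MRC1 were also higher in theca. CD68 (0.17, -0.09 to 0.44), AIF1 (-0.35, -0.93 to 0.22), CD14 and ITGAM were not called.

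Transcription factors of the gonad were higher in theca in 20 and in granulosa in 11 of 41 tested (median -0.35). NR2F1, an orphan nuclear receptor, was at 126 ± 23.7 in granulosa and 780.1 ± 103 in theca (log2 difference -2.62 ± 0.11, adjusted p = 8.87e-06), and its relative NR2F2 was -2.49. TBX2, a T-box factor, was -3.11. In granulosa, RUNX1 was at 1512, 1607, 1622 and 1395 in granulosa and 493, 424, 528 and 289.9 in theca libraries (log2 difference 1.85 ± 0.12, adjusted p = 2.10e-05), TOX2 2.33 and FOXO1, which insulin and gonadotropin signals hold in check, 1.63. None of these 6 overlapped. GATA4 was not called, at 5136 ± 1358 in granulosa and 4640.1 ± 777 in theca (interval -0.12 to 0.35).

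Cell cycle genes were higher in granulosa in 38 of 50 tested and in theca in 3 (median 0.83). The granulosa count was 11 without the animal block and 15 with the theca library of sheep 139 added. CDK6, a kinase of the G1 phase, was at 5423, 6295, 6141 and 5531 in granulosa and 1865, 2141, 2251 and 1810.3 in theca libraries (log2 difference 1.54 ± 0.07, adjusted p = 8.87e-06), without overlap. The mitotic genes PLK1 (1.02) and CENPE (1.12) and the replication gene MCM5 (1.23) were higher in granulosa. D-type cyclins divided: CCND1 was at 56.1, 59.6, 56.4 and 138 in granulosa and 426, 330.4, 171 and 486 in theca libraries (log2 difference -2.19 ± 0.23, adjusted p = 0.000159), CCND3 was also higher in theca (-1.38), and CCND2, the cyclin of follicle stimulating hormone response, was higher in granulosa (1.09). The inhibitor CDKN1C was the third gene higher in theca (-0.86), with no call without sheep 244 (adjusted p = 0.0614, range 0.0022 to 0.0656) or 246 (0.0506).

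Genes of glycolysis and of the response to low oxygen were higher in granulosa in 23 of 34 tested and in theca in 4 (median 0.65). The theca count was 2 without the block, with all 19 libraries or with sheep 139 added. PFKFB3, which sets the rate of glycolysis, was at 2371, 2831, 1405 and 2890.5 in granulosa and 568, 563, 456 and 457 in theca libraries (log2 difference 2.17 ± 0.15, adjusted p = 2.55e-05). HIF1A, the oxygen-sensing transcription factor, was at 14915, 16579, 12915 and 23124 in granulosa and 5217, 4351, 4468 and 4802 in theca libraries (log2 difference 1.81 ± 0.13, adjusted p = 2.72e-05), and its targets ADM (2.12) and BNIP3 (1.46) were higher as well. None of the 4 overlapped, and sheep 268 was highest for HIF1A but lowest for ADM. The genes higher in theca were PDK4 (-0.49), PFKM (-0.57), PFKP (-0.87) and ENO2 (-1.80). EPAS1, the related factor of endothelium, was not called (-0.42, -0.80 to -0.03). Of 28 genes of oxidative phosphorylation tested, 9 were higher in granulosa (32.1%, against 23.8% of all genes) and 0 in theca. Their median of 0.11 was near that of all genes. Without the block or with sheep 139 added the granulosa count was 4. NDUFS4, of complex I, had the largest difference (1.12).

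**Figure D5:**
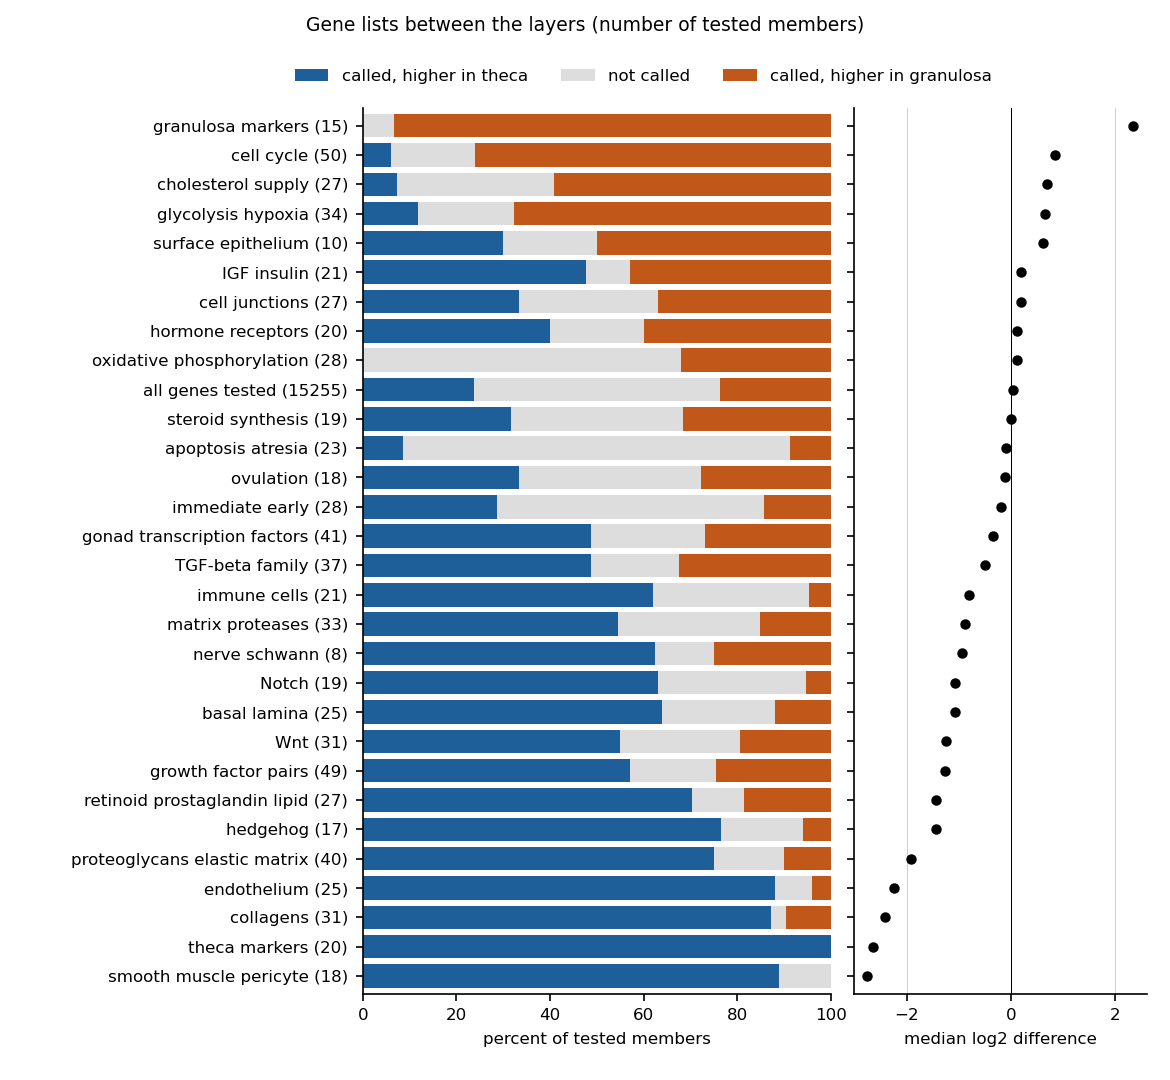
For each gene list with 5 or more tested members, and for all genes tested, the left panel gives the percent of members called higher in theca (blue), not called (grey) and called higher in granulosa (orange), and the right panel the median log2 difference. Lists run from granulosa markers (2.35) and cell cycle (0.83) at the top to smooth muscle and pericyte markers (-2.76) at the bottom, with all genes at 0.05.

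Of 27 genes of prostaglandin, retinoid and signalling lipid metabolism tested, 19 were higher in theca and 5 in granulosa (median -1.43). The theca count was 12 with the filter of 50, and the granulosa count 3 without the block, with all 19 libraries or with sheep 139 added. The prostaglandin synthases were divided. PTGES, which makes prostaglandin E2, was at 506, 511, 314 and 749 in granulosa and 119.6, 68.3, 81.2 and 65.5 in theca libraries (6.06-fold, adjusted p = 0.000114). PTGDS, which makes prostaglandin D2, was at 21.1, 76.1, 82.4 and 68.1 in granulosa and 2214, 1872, 1462 and 1465 in theca libraries (log2 difference -4.95 ± 0.37, adjusted p = 3.21e-05), and PTGIS, prostacyclin synthase, was -3.60. None of the 3 overlapped. Retinoid genes divided too, with the retinaldehyde dehydrogenase ALDH1A1 in theca (-2.27) and the carrier CRABP2 in granulosa (1.32), the latter with overlap and no call without the block (adjusted p = 0.0865, range 1.66e-18 to 0.0865).

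Of genes of the ovulatory response, 5 of 18 tested were higher in granulosa and 6 in theca, shares of 27.8% and 33.3% near the 23.8% and 23.7% of all genes (median -0.11). With all 19 libraries 3 were higher in theca. PLAT, tissue plasminogen activator (-1.79), and ADAMTS1 (-2.01) were in theca beside PGR and LHCGR. Of 28 immediate early genes 4 were higher in granulosa and 8 in theca, so that 42.9% were called, against 47.5% of all genes. The theca count was 5 without sheep 224 or 246, without the block or with the filter of 50. It was 4 without sheep 268 or with all 19 libraries. The granulosa count was 1 without sheep 224 or 246, without the block, with all 19 libraries or with sheep 139 added. DUSP1 (-0.82) and KLF2 (-1.98) were in theca and JUND (0.39) in granulosa. ATF3 (0.94), IER3 (0.36) and JUN (0.34) were called for granulosa but lost the call in 7, 5 and 6 of the alternatives that tested them, among them the fit without sheep 246 (adjusted p = 0.0612, range 0.0182 to 0.244, 0.0667, range 0.0107 to 0.432 and 0.117, range 0.00493 to 0.248). Of 23 genes of apoptosis and atresia 2 were called in each direction (17.4%), the lowest share among the lists tested. The granulosa count was 0 without the block or with sheep 139 added, and 1 with all 19 libraries. IGFBP5, which rises in atretic follicles, was at 27931, 10199, 28732 and 3739 in granulosa and 50002, 51229, 48661 and 38256 in theca libraries (log2 difference -1.82 ± 0.39, adjusted p = 0.00591), with its lowest granulosa value in sheep 268.

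Among genes with a symbol and a mean of at least 100 in the higher layer, the 12 with the largest differences were also ranked for each layer. In granulosa, after IHH came ACSBG1, an acyl-CoA synthetase, at 427, 575, 414 and 421 in granulosa and 54.2, 62.3, 20.6 and 29.7 in theca libraries (log2 difference 3.55 ± 0.23, adjusted p = 2.10e-05). NPTX2, a neuronal pentraxin, was at 1712, 4622, 7713 and 2229.7 in granulosa and 223, 532, 2005 and 144 in theca libraries (log2 difference 2.98 ± 0.26, adjusted p = 6.52e-05), and its relative NPTX1 was 2.79. For NPTX2 the theca value of sheep 246 was above the granulosa value of sheep 224. SRGN, the secretory granule proteoglycan serglycin, was at 11979, 12086, 19076 and 18604 in granulosa and 2109, 1967, 2816 and 1453 in theca libraries (log2 difference 2.89 ± 0.18, adjusted p = 1.75e-05), without overlap. The others were CYP19, the anion exchanger SLC26A4 (2.94), ASB15 (2.90), PIWIL2, of the piRNA pathway (2.85), the neurotrophic receptor GFRA3 (2.84), the phospholipase PLB1 (2.78) and SLC35G1 (2.77).

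The 12 largest in theca had log2 differences from -5.59 to -4.74. C1QTNF7, a secreted relative of adiponectin, was at 2.22, 2.21, 1.45 and 4.86 in granulosa and 124, 245, 153 and 169 in theca libraries (log2 difference -5.59 ± 0.35, adjusted p = 1.91e-05). PENK, the precursor of enkephalins, was at 1.67, 14.3, 3.61 and 27.6 in granulosa and 238, 310.3, 182 and 512 in theca libraries (log2 difference -5.08 ± 0.39, adjusted p = 3.86e-05). LHX9, a homeobox gene of the early gonad, was at 5.56, 52.9, 30.4 and 23.5 in granulosa and 635, 1303, 448 and 374 in theca libraries (log2 difference -4.74 ± 0.42, adjusted p = 7.08e-05), and the transcription regulators TCF23 (-4.92) and MN1 (-4.97) stood with it. LHX9 had been listed among markers of the ovarian surface epithelium, of which 10 were tested, with 5 higher in granulosa (3 without sheep 244) and 3 in theca. The rest were SBSPON (-5.28), the junctophilin JPH4 (-5.12), the sortilin-related receptor SORCS2 (-5.11), the kinase DGKB (-5.06), FAM180A (-5.01), PTGDS and TMEM132C (-4.74). JPH4 had 0, 0 and 0.723 in granulosa of sheep 224, 244 and 246 but 26.8 in sheep 268.

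A further 5909 genes (38.7%) had a 95% interval of the difference that lay within 1.5-fold either way, and 1184 of these were called all the same. Among genes with a mean of at least 1000 this held for 2278 of 3648. The 12 narrowest were led by AES, a co-repressor, at 2762, 2662, 3103 and 2487 in granulosa and 2745, 2707, 3078 and 2472 in theca libraries (interval -0.14 to 0.15). KDM5C (-0.06 to 0.23), the ribosomal protein gene RPL38 (-0.19 to 0.10), PI4KA (-0.04 to 0.25), QSER1 (-0.06 to 0.24), DDX39B (0.02 to 0.32), TNKS2 (-0.09 to 0.20) and AKAP11 (-0.31 to -0.02) were not called. EWSR1 (0.35), BBX (0.32) and BAG6 (0.30) were higher in granulosa by small and even amounts.

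Animals differed in how far the layers stood apart. Among the 12 called genes whose differences varied most, 11 were higher in theca, and for 8 of these the granulosa library of sheep 224 was the lowest. Ranking by the SD of log2 differences favours genes with a value near 0 in a layer. How often sheep 224 was lowest over all genes called higher in theca was not counted. CCL21, the chemokine of lymphatic vessels, was at 0, 118, 31.8 and 67.3 in granulosa and 350.3, 505, 509.7 and 648 in theca libraries (log2 difference -4.44 ± 0.87, adjusted p = 0.00378). DPT, dermatopontin, was at 3.89, 103, 258 and 38.1 in granulosa and 458, 739, 919.9 and 307 in theca libraries (log2 difference -3.55 ± 0.65, adjusted p = 0.00268). In both genes sheep 224 was at or near 0 in granulosa, and the theca libraries differed from each other by less than the granulosa libraries. MMRN1 (-3.97), AGTR1 (-3.74), COL6A5 (-3.71), the complement gene C1S (-3.91), SORCS2 and RXFP1 also had their lowest granulosa value in sheep 224. The endothelial sum was also lowest in that granulosa library, at 4902 against 6492 to 8452 in the others, and so was the theca marker sum, at 37119.7. The part of these other cells in the differences was not tested.

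A gene of the other kind was EMB, embigin, a chaperone of lactate transporters, at 567, 956, 1734 and 8.92 in granulosa and 129, 193, 399 and 17.5 in theca libraries (log2 difference 1.41 ± 0.49, adjusted p = 0.0438). Sheep 268 was low in both layers and had the higher value in theca, against the other 3 animals. EMB lost its call without sheep 224, 244 or 246 in turn (adjusted p = 0.144, range 2.67e-05 to 0.532, 0.184 and 0.147). ADAMTS5, a protease of aggrecan, was higher in granulosa in sheep 224 and higher in theca in the others (580.3, 103, 291 and 26.8 in granulosa and 548, 699.9, 551 and 262 in theca libraries; log2 difference -1.71 ± 0.49, adjusted p = 0.021), and THSD4 was higher in granulosa in sheep 268 alone (319.6, 110.3, 116 and 1163 in granulosa and 1135, 1082, 553 and 946 in theca libraries; log2 difference -1.76 ± 0.47, adjusted p = 0.0154). LTBP2 (-1.68) was lowest in the granulosa of sheep 268. ADAMTS5 (adjusted p = 0.106, range 0.0039 to 0.138), THSD4 (0.0701, range 0.000258 to 0.072) and LTBP2 (0.0785, range 0.00591 to 0.0895) were not called without sheep 244.

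A few further genes described above as called also lost the call in one of these settings. With all 19 libraries these were ANGPT2 (adjusted p = 0.0916, range 3.07e-23 to 0.0916), CSF1R (0.225, range 6.42e-06 to 0.225), GPC3 (0.123, range 4.79e-16 to 0.123), IGFBP2 (0.0674, range 2.78e-23 to 0.0674), IRS1 (0.11, range 6.07e-10 to 0.11) and PFKM (0.0902, range 2.18e-05 to 0.0902). Without the animal block they were BBX (adjusted p = 0.103, range 0.000142 to 0.103), ENO2 (0.106, range 0.00435 to 0.106), EWSR1 (0.25, range 3.49e-05 to 0.25) and PDK4 (0.238, range 1.62e-06 to 0.238).

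The same layers of the prenatal T animals, which the comparison had not used, had the same direction of difference for most called genes. Of the 7247 called genes, 7079 (97.7%) had the same direction in 5 prenatal T animals, against 72.2% of the genes that were not called. Without prenatal T sheep 209, which an earlier analysis of these data had set apart, these shares were 98.7% and 73.3%. Tested within the prenatal T animals, 4343 of the called genes (59.9%) were called the same way and 1 the opposite way, where 5167 of all 15255 genes (33.9%) were called. Without sheep 209 these were 5925 (81.8%) and 2, where 7619 of all genes (49.9%) were called.

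The layer difference was then set against that of the prenatal T animals directly, as an interaction over 18 libraries with the animal as a block. By limma 0 of 15255 genes (0%) were called for a different layer difference, with 720 at an unadjusted p under 0.05, and edgeR called 0 as well, with 764. Without sheep 209 limma again called 0, with 1292 at an unadjusted p under 0.05, and edgeR 0, with 1371. The gene of smallest p was C1QTNF3, a secreted protein of fibroblasts, which was at 392, 421, 444 and 208 in granulosa and 2098, 2551, 2176 and 1671 in theca libraries of the control sheep. Its log2 difference of -2.57 there compared with -4.17 under prenatal T (interaction adjusted p = 0.708). SCARA3 was -0.45 and 0.02, FGD5 -0.60 and -1.91, ITGA8 -2.65 and -3.58, and SERINC1 -0.02 and -0.65, all with an adjusted p of 0.708. Without sheep 209 the first were CTTNBP2, with -0.50 in controls against -2.04 over 4 animals of the prenatal T group (adjusted p = 0.14), and the Wnt antagonist FRZB, at -2.99 and -4.64 (adjusted p = 0.14). MYLK, a kinase of smooth muscle, was -3.76 and -5.06, and KLHL3 0.05 and 1.39.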

How the data were processed

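RNA of granulosa and theca cells had been sequenced from stranded libraries depleted of ribosomal RNA, per the labels' protocols. The authors' deposited values are a signal: gene counts divided by a size factor of each library. The submitters' processing notes name FastQC 0.11.5, MultiQC 0.9, STAR 2.6.0c, featureCounts (Subread 1.6.1) and DESeq2. The genome build, the annotation and the strand setting of counting are not given in the sources used here, so overlapping and antisense genes and close paralogs may share reads. Dividing by the smallest step of a library gave whole reads for 100% of values (tolerance 1e-06). The table held 0 columns of values without a sample. One granulosa library named in the labels, that of control sheep 139, is not analysed here. Of 10441 LOC names, 406 were given a symbol from RefSeq (assembly ARS-UI_Ramb_v3.0).

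Genes with a value of 10 or more in 4 or more of the 8 libraries were compared with limma 3.58.1 in R 4.3.3 on log2(value + 1), with the animal as a block, two-sided, and Benjamini-Hochberg adjustment at 0.05. The replicate numbers are the animals' own. Deviations from the layer means correlated within an animal (r = 0.434 to 0.638), and the layers were treated as paired. Between animals the values were -0.336 to 0.0226. With positive values within animals, subtracting the layer mean pushes those between animals below 0, so they add no separate support. P-values cover the spread between 4 animals. By sign flips alone 4 pairs cannot go below an exact p of 0.125. Alternatives were no block, a pseudocount of 10, no filter, a filter of 50, edgeR's TMM factors, edgeR 4.0.16, DESeq2 1.42.0, all 19 libraries in 1 fit with the animal as a random effect, the theca library of sheep 139 added, and each animal left out. Fits were tested on simulated data.

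The comparison, the gene lists and the rules were chosen with earlier results of these data known. Genes named were the 12 largest called differences in each direction (mean of at least 100 in the higher layer, with a symbol), the 12 called genes with a mean of at least 100 whose differences varied most by animal, the 12 of narrowest interval within 1.5-fold (mean of at least 1000), from each list the 4 members with the smallest p on either side and members not called, all genes of the ligand and receptor pairs, and the 5 of smallest p for the interaction. CCND2, COL4A1, COL4A2, COL4A5, COL4A6, CYP11A1, ESR1, INSIG1, SREBF2 and STAR, and the oocyte genes below the filter, were chosen after their values were seen. Some genes that the rule names are not reported here.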

Additional observations from a re-analysis of the deposited data

Results flagged for a closer look

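In groups of 4 libraries, a library was singled out where its gap to the nearest of the others, as a share of the group's range, passed Dixon's 95% critical value for 4 samples. Of 160 groups examined, 14 passed, and chance passes about 1 in 20. The granulosa library of sheep 268 had 21668 genes above 0, against 18965 to 19139 in the other granulosa libraries. In the granulosa of sheep 224, COL1A1 was low at 12589, PTGDS low at 21.1 and KIT high at 2253. In the granulosa of sheep 244, ACSBG1 was high at 575, VWF high at 1633 and KITLG low at 1724. In the granulosa of sheep 268, CCND1 was high at 138 and C1QTNF3 low at 208, and in that of sheep 246 DHH was low at 2.17. Among theca libraries, sheep 246 was low for ACTA2 (21422) and high for CCN3 (1235), sheep 244 high for HEY2 (239) and sheep 268 low for IGF1R (5772).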

How the results depend on the processing

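Without the animal block, so with the layers not paired by animal, 4565 genes were called in place of 7247, and 1815 in place of 3624 were higher in granulosa, while 2750 in place of 3623 were higher in theca. With the theca library of sheep 139 added and no animal term, 2317 genes were higher in granulosa. Leaving out each animal in turn gave 5958 to 6466 calls, 2865 to 3043 higher in granulosa and 3092 to 3423 higher in theca. A pseudocount of 10, no filter, the stricter filter, TMM factors, edgeR, DESeq2 and all 19 libraries in 1 fit each kept the counts within 1.5 times. Of 270 genes named by rule 246 were called, and 191 of these were called in every alternative that tested them. No named gene reversed direction past the threshold in these alternatives. The largest losses came with all 19 libraries (38 genes), without the block (35) and with sheep 139 added (29). The interaction with prenatal T gave 0 calls in every alternative. The cause of these changes was not tested. Depth limits genes of few reads, such as CD8A in granulosa.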

Other observations

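Markers of nerve and of the ovarian surface epithelium, which the follicle wall could also hold, were found on both sides. Of 8 nerve and Schwann cell genes tested, 5 were higher in theca and 2 in granulosa. The theca count was 3 without sheep 244 or 268, with the filter of 50 or with all 19 libraries. The granulosa count was 0 without the animal block and 1 with all 19 libraries or with sheep 139 added. The theca side held the Schwann cell genes S100B (-2.05), SOX10 (-3.68) and MBP (-1.67), with NGFR (-1.48) and SNAP25 (-0.39), given as log2 differences. On the granulosa side, the neurofilament gene NEFM was at 587, 772, 2404 and 401 in granulosa and 133, 295, 969.6 and 100.4 in theca libraries (log2 difference 1.70 ± 0.16, adjusted p = 8.18e-05), highest in both layers in sheep 246 and overlapping between layers. NEFM was not called without the animal block (adjusted p = 0.109, range 2.24e-19 to 0.15 over the alternatives). Of 10 surface epithelium genes, 5 were higher in granulosa and 3 in theca, and the granulosa count was 2 without the block, with the filter of 50, with all 19 libraries or with sheep 139 added. The keratin gene KRT8 was at 75.6, 237, 1399.9 and 51.1 in granulosa and 26.2, 72.3, 452 and 22.7 in theca libraries (log2 difference 1.49 ± 0.17, adjusted p = 0.000275), again highest in sheep 246, and it was not called without the block (adjusted p = 0.368, range 1.51e-15 to 0.4 over the alternatives).

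By gene type, 25.3% of 13436 protein-coding genes were higher in granulosa and 24.7% in theca. Of 343 long non-coding genes, 9.91% were higher in granulosa and 17.2% in theca.

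Another control animal, sheep 139, had a theca library and no granulosa library in the table, so it had no pair and entered only 2 of the alternatives. Its theca level was below the range of the other 4 theca libraries for LHCGR (1017), CYP17A1 (585), HSD3B1 (482), INSL3 (3546) and STAR (399), and also for the granulosa genes AMH (327) and FSHR (119.5). It was above that range for ACTA2 (51679). COL1A1, CYP19, IHH and INHA lay within it. Of 3623 genes called higher in theca, 95.6% were nearer in this library to the theca mean than to the granulosa mean, and of 3624 called higher in granulosa 88.4%.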
